A study of Homo sapiens with 36 samples.

Results

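DU145 and 22Rv1 are PCa cell lines that the study treats as osteolytic prostate cancer (LPCa), the 2 of that kind with cultures in this series, and their mono-cultures without RANKL are compared here. These were 3 cultures of DU145 and 3 of 22Rv1, 6 of the 36 cultures of the series. All 6 were taken as the labels give them, and nothing measured was used to choose them. The study asked how PCa cells of the osteolytic and the osteoblastic kind (BPCa, the lines C4-2 and C4-2B) respond to osteoblast-like MG63 cells and to osteoclast precursors (RAW264.7 cells), so the mono-cultures served it as the baseline. Poly(A) RNA was sequenced with a strand-specific library.

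DU145 was established from a brain metastasis of a prostate carcinoma and 22Rv1 from a serially passaged prostate cancer xenograft. The labels give no introduced gene for either. Both were grown for 5 days without partner cells in NICO-1 chambers, in αMEM with serum and antibiotics and no RANKL. The other 12 cultures of both lines, which are set beside the 6 below, were 2 per line with MG63 cells, 2 per line with 50 ng/mL RANKL, and 2 per line with RAW264.7 cells and RANKL, each partner behind a porous filter. Each is 1 permanent line, which limits it as a model of a tumor, and the 2 were maintained in different media before the experiment. DU145 was seeded at fewer cells per well than 22Rv1. The labels number the cultures 1 to 3 and do not say whether they came from separate passages, so the p-values measure the spread between these cultures, which may be technical.

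Values are TPM, the transcripts of a gene per 1e6 transcripts of the culture, which makes levels comparable between genes. The 6 cultures held between 23932472 and 34149876 counts. Pearson's r of log2(TPM + 1) across the 12976 genes tested lay between 0.994 and 0.995 for cultures of 1 line, and between 0.69 and 0.696 for cultures of different lines. These coefficients are across genes, which are not independent replicates. As these are bulk cultures, fewer cells with a transcript and less of it per cell cannot be told apart. Both lines carried epithelial keratins. KRT8, a simple epithelial keratin, stood at 639, 615 and 620.1 TPM in the DU145 cultures and at 233, 230.0 and 239.6 TPM in the 22Rv1 cultures. The markers of the partner cells were low. The 12 osteoblast and osteosarcoma markers summed to 8.19 to 11.1 TPM in DU145 and 8.96 to 13.8 TPM in 22Rv1, and POSTN was at 0 in all 6 cultures. The 10 macrophage and osteoclast markers summed to 68.6 to 84.7 TPM in DU145 and 11.6 to 13.5 TPM in 22Rv1. Most of that sum in DU145 came from CD68, a lysosomal protein, and CTSK, a lysosomal protease, while the osteoclast fusion gene DCSTAMP was at 0 in all 6 cultures. RAW264.7 cells are murine and the levels are of human transcripts, so these markers cannot show whether RNA of that line was present.

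As background, luminal prostate epithelium depends on androgen, whose signal works with lineage factors such as FOXA1 and HOXB13 to drive secretory genes such as the kallikreins. Prostate cancer that has lost this program often takes on basal, mesenchymal or neuroendocrine features. Cancer cells in bone can push osteoclasts and osteoblasts through secreted cytokines, proteases and growth factors, which is why the secreted genes of both lines were examined beside their lineage genes.

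A gene was called when edgeR's quasi-likelihood test gave a fold change above 2 and a Benjamini-Hochberg adjusted p under 0.05. Of the 12976 genes tested, 2617 were higher in DU145 (20.2%) and 2516 were higher in 22Rv1 (19.4%), 39.6% together. These shares are of tested genes. Of all 27852 genes in the table, tested or not, 9.4% were called higher in DU145 and 9.03% higher in 22Rv1. The counts below are given over all members of a list, since a gene with fewer than 100 counts in every culture was not tested, and a low gene could pass that minimum only through the line where it was higher. Some genes belong to more than 1 list. For 2613 of the genes higher in DU145 and 2505 of those higher in 22Rv1, the 3 cultures of the higher line all lay above the 3 of the other. A further 6012 genes had an adjusted p under 0.05 with a smaller fold, so the calls were set by the size of the difference more than by the spread between cultures. Some genes were close to an on or off state. At 20 TPM or more in 1 line and under 1 TPM in the other, 129 genes were found on the DU145 side and 124 on the 22Rv1 side. Log2 differences below are DU145 minus 22Rv1 with their standard error, so a negative value means a higher level in 22Rv1. The largest adjusted p of any gene called higher or lower in the text was 1.1e-05.

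**Figure D1:**
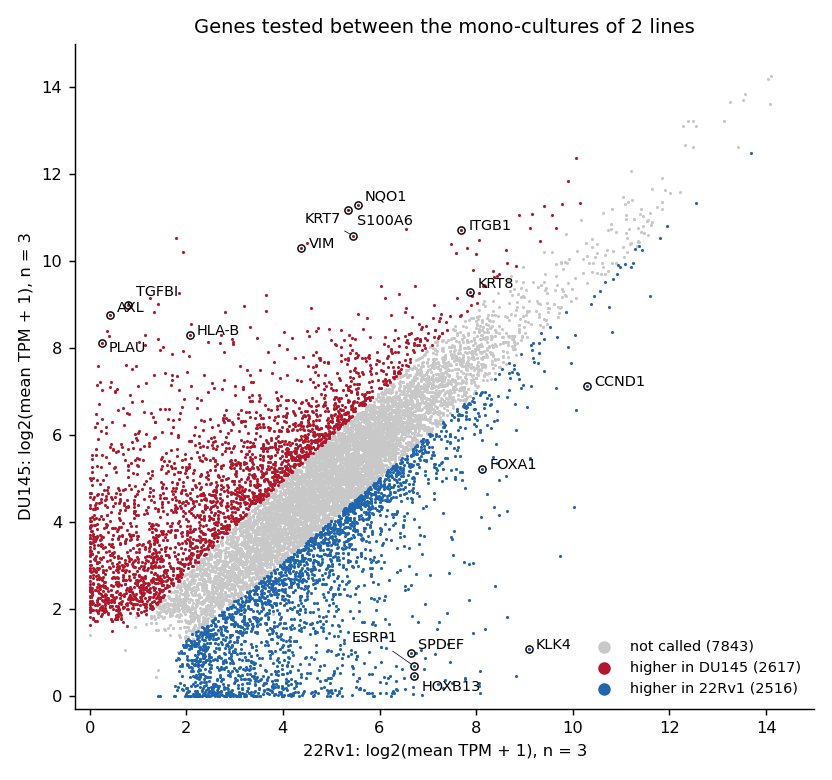
Mean level of each of the 12976 tested genes in 3 cultures of 22Rv1 (x axis) and 3 of DU145 (y axis), both as log2(mean TPM + 1), with called genes in color and some named genes circled. HOXB13, SPDEF and KLK4 lie low on the DU145 axis, and AXL, PLAU and TGFBI lie low on the 22Rv1 axis.

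The lineage factors and androgen-response genes of the prostate were mostly higher in 22Rv1. HOXB13, a homeobox factor that marks the posterior gut and the prostate, was at 0.379, 0.404 and 0.316 TPM in DU145 and 101, 108 and 104 TPM in 22Rv1 (log2 difference -8.13 ± 0.09). SPDEF, an ETS factor of secretory epithelium, was at 0.994, 0.933 and 0.972 TPM and 93.4, 106 and 98.8 TPM (-6.68 ± 0.09). The 3 cultures of each line did not overlap for either gene. FOXA1, a pioneer factor that opens chromatin for steroid hormone signals, was not absent from DU145. Its levels were 34.3, 36.7 and 37 TPM in DU145 and 268, 289 and 274 TPM in 22Rv1 (-2.94 ± 0.04). GATA2, a zinc finger factor of luminal cells, stood at 33.5, 31.4 and 29.4 TPM and 143, 144.9 and 143 TPM (-2.18 ± 0.05). Of the 10 prostate lineage factors, 9 were higher in 22Rv1 and 0 in DU145. The remaining member, ELF3, an epithelial ETS factor, did not pass the fold threshold and stood at 37, 38.1 and 46.2 TPM in DU145 and 43.7, 42.6 and 45 TPM in 22Rv1.

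Of the 20 androgen-response genes, 15 were higher in 22Rv1, 1 was higher in DU145, 1 was not called, and 3 (STEAP4, TRPM8 and ABCC4) did not reach the minimum count. KLK4, a kallikrein protease of the prostate, showed the widest difference of the list, at 1.28, 1.14 and 0.944 TPM in DU145 and 536, 545 and 548 TPM in 22Rv1 (-8.90 ± 0.07). TMPRSS2, the protease whose promoter drives ETS fusions in many prostate tumors, was at 0.191, 0.391 and 0.314 TPM and 16.5, 18.6 and 15.5 TPM (-5.77 ± 0.19, or -6.48 when reads recovered from the deposited values were tested). Among these the DU145 cultures were always the low ones. FOLH1, which encodes the prostate-specific membrane antigen, was at 3.48, 2.59 and 3.81 TPM in DU145 and 113, 123 and 129.7 TPM in 22Rv1 (-5.20 ± 0.10, or -6.65 with recovered reads). STEAP1, a metalloreductase of the prostate cell surface, was at 13.5, 13.9 and 13.3 TPM and 291, 302 and 324 TPM (-4.49 ± 0.06).

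KLK3, which encodes PSA, placed 22Rv1 far from the C4-2 lines. It stood at 5.81, 6.67 and 7.43 TPM in DU145 and 52.4, 60.5 and 57.5 TPM in 22Rv1 (-3.10 ± 0.09), while C4-2 and C4-2B held 4694 ± 81.5 and 5419 ± 98.8 TPM (mean ± SD, n = 3, as for all C4-2 values below). KLK2, its close relative, was at 2.02, 1.05 and 2.68 TPM in DU145, 141, 152 and 144 TPM in 22Rv1 and 1328 ± 46.1 and 1333 ± 78.1 TPM in the C4-2 lines. For these kallikreins 22Rv1 was therefore above DU145 and far below C4-2, whereas for KLK4 the mean of 22Rv1, 543 TPM, was above those of C4-2 and C4-2B, at 288 ± 10.3 and 373 ± 7.65 TPM. KLK2 and KLK3 are close in sequence, and reads that match both may be shared between them. NDRG1, a stress-induced gene that androgen also raises, went the other way, at 178, 191 and 201 TPM in DU145 and 19.7, 27.8 and 23.1 TPM in 22Rv1 (3.02 ± 0.10), with the 3 DU145 cultures all above the 22Rv1 cultures.

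The proximal promoter of KLK3 is shown because the protein it encodes is the one measured in the clinic to follow prostate cancer. It is the RefSeq window at chr19:50854665-50854964 on the plus strand of GRCh38.p14, from 250 bases before to 50 bases after the start of the transcript. Capitals mark the androgen response half-site AGAACA, searched on both strands.
KLK3: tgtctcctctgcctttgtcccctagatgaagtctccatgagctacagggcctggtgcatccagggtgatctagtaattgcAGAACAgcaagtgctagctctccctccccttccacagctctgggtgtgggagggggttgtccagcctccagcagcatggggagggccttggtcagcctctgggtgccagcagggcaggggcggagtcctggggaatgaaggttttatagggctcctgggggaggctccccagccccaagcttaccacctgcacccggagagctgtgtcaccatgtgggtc
That half-site was present in 14.8% of all 34796 promoter windows of this length, and in 5 of the 24 windows of the 13 androgen-response genes that matched a window. The match is a description of the letters, and no binding was measured.

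**Figure D2:**
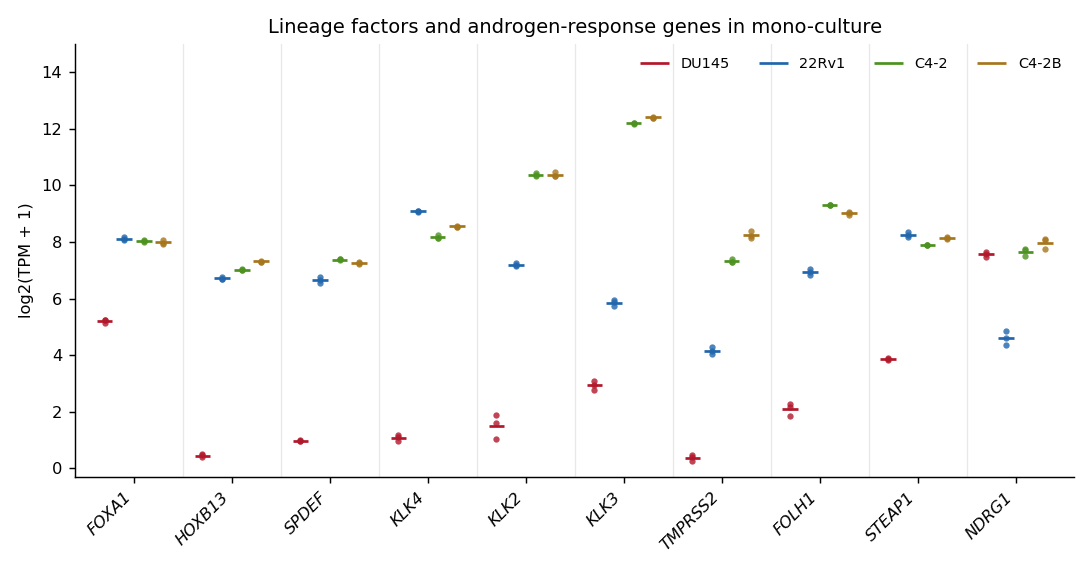
Levels of 10 lineage and androgen-response genes as log2(TPM + 1) in the mono-cultures of DU145, 22Rv1, C4-2 and C4-2B, with 1 dot per culture and a line at the mean of 3. DU145 is lowest for every gene shown except NDRG1, where 22Rv1 is lowest.

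Fewer of the genes of androgen metabolism were called than of the androgen-response genes. Of all 27852 genes in the table, tested or not, 18.4% were called. Of the 20 genes of androgen metabolism, 5 were higher in 22Rv1, 1 in DU145 and 5 were not called. Another 8 were under the minimum count and SRD5A2 was not analysed here. UGT2B15, which inactivates androgens by adding glucuronic acid, was at 0, 0.169 and 0.218 TPM in DU145 and 15.4, 12.2 and 17.2 TPM in 22Rv1 (-6.84 ± 0.38, or -6.22 and -7.48 without replicate 1 and replicate 3 of DU145). UGT2B11, a relative in the same gene cluster, had 1 read in all DU145 cultures and 6.32, 6.79 and 7.04 TPM in 22Rv1, a ratio of 210.0 with a 95% counting interval of 37.7 to 8294. The UGT2B genes are near-identical in places, so how reads were divided among them is uncertain. AKR1C3, which makes testosterone from a weaker precursor, was higher in DU145, at 30.6, 26.6 and 37.4 TPM against 10.8, 11.1 and 10.1 TPM (1.57 ± 0.12).

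The epithelial identity of the lines split between keratins and junctions. DU145 held more KRT7, a keratin of simple ducts, at 1587, 1488 and 1545 TPM against 45.1, 40.6 and 42 TPM in 22Rv1 (5.18 ± 0.05), and more KRT8 (1.42 ± 0.03). KRT18, the partner of KRT8, did not pass the fold threshold (0.79 ± 0.03), and neither did KRT19 (-0.44 ± 0.05). CDH1, which encodes the adherens junction protein E-cadherin, was at 10.02, 13.6 and 12.3 TPM in DU145 and 115, 119 and 107 TPM in 22Rv1 (-3.24 ± 0.09). EPCAM, an epithelial adhesion molecule, was at 14.5, 16.4 and 21.6 TPM and 97.1, 94.4 and 89.9 TPM (-2.42 ± 0.11). Both were thus detected in every DU145 culture, at levels under those of each 22Rv1 culture.

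Of the 18 cell junction and epithelial splicing genes, 11 were higher in 22Rv1 and 3 in DU145, 3 were not called and RAB25 did not reach the minimum count. ESRP1, a splicing factor that keeps epithelial isoforms, stood at 0.587, 0.768 and 0.441 TPM in DU145 and 107, 106 and 101 TPM in 22Rv1 (-7.43 ± 0.10). CLDN7, a tight junction protein, was at 19, 18.4 and 20.1 TPM and 334, 322 and 326 TPM (-4.09 ± 0.04). The transcription factors OVOL1 and OVOL2, which hold cells in an epithelial state, were also higher in 22Rv1, with log2 differences of -6.90 ± 0.40 and -4.25 ± 0.24. The 3 genes higher in DU145 were CLDN1, another claudin (4.63 ± 0.11), OCLN, which encodes occludin (1.66 ± 0.16, or 1.05 with recovered reads), and CDH3, which encodes P-cadherin of basal epithelium (1.28 ± 0.06).

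More mesenchymal genes were higher in DU145 than in 22Rv1. Of 20 members, 10 were higher in DU145 and 3 in 22Rv1, 1 was not called and 6 were under the minimum count. VIM, which encodes the intermediate filament vimentin, stood at 1254, 1288 and 1238 TPM in DU145 and 17.9, 21.5 and 20.1 TPM in 22Rv1 (5.99 ± 0.06). AXL, a receptor tyrosine kinase linked to invasion, was at 432, 443 and 435 TPM and 0.344, 0.292 and 0.358 TPM (10.29 ± 0.07). TGFBI, a secreted matrix protein induced by TGF-beta, was at 513, 523 and 498 TPM and 0.371, 0.88 and 0.977 TPM (9.39 ± 0.11). AXL and TGFBI thus stayed under 1 TPM in each 22Rv1 culture, while VIM was detected in all of them. CAV1, the membrane coat protein caveolin-1, was at 166, 168 and 165 TPM in DU145 and 1.69, 1.43 and 1.4 TPM in 22Rv1 (6.80 ± 0.06).

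The transcription factors of the list were divided between the lines within families. TWIST1, a basic helix-loop-helix factor, had 0 reads in the 3 DU145 cultures and stood at 27.3, 29.2 and 30.4 TPM in 22Rv1, at least 254-fold higher against a floor of 3 reads per culture. TWIST2, its paralog, had 0 reads in 22Rv1 and stood at 8.37, 6.05 and 6.92 TPM in DU145, at least 38-fold higher. ZEB1, a repressor of CDH1, was higher in DU145, at 17.1, 18.5 and 16.8 TPM against 3.1, 2.88 and 2.83 TPM (2.57 ± 0.09, or 4.27 with recovered reads), as was SNAI1, another repressor of CDH1 (3.36 ± 0.32). SNAI2, a relative of SNAI1, was higher in 22Rv1, at 10.9, 11.4 and 11.7 TPM against 2.47, 2.82 and 2.65 TPM (-2.10 ± 0.11). FN1, which encodes fibronectin, was also higher in 22Rv1, at 23.3, 18.9 and 19.7 TPM against 3.94, 4.98 and 4.53 TPM in DU145 (-2.20 ± 0.11). CDH2, which encodes N-cadherin, was at 0.0144, 0 and 0.0159 TPM in DU145 and 0.827, 1.22 and 1.2 TPM in 22Rv1 and was not tested.

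DU145 carried the laminin and integrin genes of basal epithelium without the basal keratins. Of the 15 basal epithelial genes, 7 were higher in DU145 and 0 in 22Rv1, and the 8 others were under the minimum count. The 8 include KRT5, KRT14, KRT6A and TP63, the genes that define basal cells, and the highest value of any of these in the 6 cultures was 0.509 TPM. LAMB3, a chain of laminin-332, was at 137, 143 and 139.8 TPM in DU145 and 1.21, 0.674 and 1.09 TPM in 22Rv1 (7.13 ± 0.09). ITGB4, part of the laminin receptor of hemidesmosomes, was at 32.2, 35.5 and 33.5 TPM and 0.572, 1.39 and 0.622 TPM (5.34 ± 0.19, or 7.29 with recovered reads). CD44, a hyaluronan receptor, was at 166, 173 and 177 TPM and 31.4, 36.8 and 33.2 TPM (2.35 ± 0.06) and near 0 in C4-2 and C4-2B, at 0.238 ± 0.0296 and 0.254 ± 0.0939 TPM.

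Of 12 integrins, 7 were higher in DU145 and 0 in 22Rv1, 3 were not called and 2 were under the minimum count. ITGB1, the common beta chain, stood at 1626, 1673 and 1722 TPM in DU145 and 203, 209 and 204 TPM in 22Rv1 (3.03 ± 0.03). ITGA3, an alpha chain that binds laminin, stood at 489, 495 and 518 TPM and 9.19, 8.13 and 7.2 TPM (5.95 ± 0.06). ITGB3, a chain of the vitronectin receptor that is studied in bone metastasis, was lower, at 9.93, 12.3 and 12.4 TPM and 0, 0.127 and 0.0935 TPM (7.21 ± 0.33). The alpha chain that pairs with it, ITGAV, was present in both lines and missed the fold threshold (0.98 ± 0.04).

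Few neuroendocrine and neural genes reached the minimum count. Of 16 members, 5 were higher in 22Rv1, 1 was higher in DU145 and 10 were under the minimum count, among them CHGA. SCG3, a secretogranin of dense-core vesicles, was at 0.504, 0.563 and 0.592 TPM in DU145 and 43, 42 and 43.3 TPM in 22Rv1 (-6.25 ± 0.09). SYP, which encodes synaptophysin, was at 1.07, 0.903 and 1.19 TPM and 30.6, 28.6 and 28.5 TPM (-4.78 ± 0.10). CHGB, a chromogranin, was at 0.347, 0.347 and 0.18 TPM and 14.7, 13.6 and 13.1 TPM (-5.53 ± 0.19). The member higher in DU145 was NKX2-1, a homeobox factor of lung and thyroid, at 131, 131 and 134 TPM against 0.377, 0.435 and 0.642 TPM (8.06 ± 0.09). Its neighbour on chromosome 14, SFTA3, a surfactant-associated gene chosen after its values were seen, was at 103, 99.7 and 109 TPM and 0.248, 0.123 and 0.0614 TPM (9.54 ± 0.13). NKX2-1 was near 0 in C4-2 and C4-2B as well, at 0.219 ± 0.0841 and 0.0424 ± 0.00859 TPM.

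Secreted factors that activate osteoclasts were either higher in DU145 or low in both lines. Of 20 osteolytic factors, 7 were higher in DU145 and 0 in 22Rv1, and 13 were under the minimum count in all 6 cultures. The 13 included PTHLH, TNFSF11 (RANKL itself) and TNF, of which the highest value in any culture was 2.99 TPM. CSF1, the growth factor of macrophages and osteoclast precursors, stood at 152, 148 and 161 TPM in DU145 and 1.8, 2.11 and 2.91 TPM in 22Rv1 (6.04 ± 0.10). CXCL8, the chemokine interleukin-8, was at 20.8, 20.9 and 18.3 TPM and 0.121, 0.0425 and 0.0626 TPM (8.004 ± 0.20). IL6, a cytokine that promotes osteoclast formation, was at 13.6, 12.4 and 12.2 TPM in DU145, and 1 read in all was found in 22Rv1, a ratio of 426 with a 95% counting interval of 76.5 to 16829. LIF and IL11, of the same cytokine family, were higher in DU145 by 3.37 ± 0.09 and 2.91 ± 0.22. DKK1 and SFRP1, secreted inhibitors of WNT signaling that restrain osteoblasts, were higher in DU145 too, with DKK1 at 81.5, 72.9 and 74.1 TPM against 11, 13.6 and 16.4 TPM (2.47 ± 0.12).

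The osteoblastic factors were divided between the lines. Of 25 members, 7 were higher in DU145 and 6 in 22Rv1, 1 was not called and 11 were under the minimum count. On the DU145 side, PLAU, which encodes the protease urokinase, stood at 264, 278 and 286 TPM against 0.103, 0.386 and 0.0747 TPM (10.61 ± 0.14, or 11.56 without replicate 2 of 22Rv1). VEGFA, the vascular growth factor, stood at 252, 261 and 284 TPM and 79.5, 87.8 and 84.6 TPM (1.66 ± 0.05). TGFB1 and TGFB2, ligands of the TGF-beta receptors, differed by 2.57 ± 0.07 and 4.37 ± 0.23. WNT7B, a WNT ligand, stood at 52.9, 53.2 and 52.3 TPM and 1.64, 1.23 and 1.12 TPM (5.32 ± 0.10). DU145 was the high line for all of these, with no overlap between cultures. On the 22Rv1 side, BMP2, a bone morphogenetic protein, was at 9.52, 9.51 and 9.48 TPM against 0.0448, 0.0688 and 0.0825 TPM in DU145 (-6.93 ± 0.23). IGF1, an insulin-like growth factor, was at 23.7, 26.1 and 29.3 TPM against 0.192, 0.384 and 0.201 TPM (-6.68 ± 0.18). IGFBP3, which binds it, was at 326, 307 and 357 TPM against 74.9, 78.4 and 82.2 TPM (-2.07 ± 0.06). KLK3, TGFB3 and ERBB3 were the other 3 members higher in 22Rv1.

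Genes that respond to NF-kB were higher in DU145. Of 20, 16 were higher in DU145 and 0 in 22Rv1, NFKB2 and SOD2 were not called, and CXCL3 and LTB were under the minimum count. ICAM1, an adhesion molecule for leukocytes, stood at 87.7, 88.4 and 96.4 TPM in DU145 and 1.26, 1.38 and 0.95 TPM in 22Rv1 (6.26 ± 0.09). BIRC3, an inhibitor of apoptosis, stood at 76.3, 80.9 and 77.8 TPM and 1.73, 1.6 and 1.34 TPM (5.68 ± 0.08, or 6.74 with recovered reads). CXCL2, a neutrophil chemokine, was at 19.8, 24.3 and 23.9 TPM and 0.0564, 0.0594 and 0.0876 TPM (8.43 ± 0.21). For each of them the DU145 cultures were all above the 22Rv1 cultures. NFKBIA, the inhibitor that NF-kB induces, was expressed in both lines, at 340.0, 325 and 355 TPM and 76.6, 77.9 and 83.7 TPM (2.10 ± 0.05). SOD2, a mitochondrial antioxidant enzyme, was nearly level, at 104, 101 and 118 TPM and 101, 96.8 and 97.8 TPM (0.13 ± 0.05).

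The promoters of CXCL2 and BIRC3 are shown because both genes belong to this list and lay under 2 TPM in 22Rv1. They are RefSeq windows of GRCh38.p14 of the same length, at chr4:74099146-74099445 on the minus strand and chr11:102317234-102317533 on the plus strand. Capitals mark matches to the NF-kB consensus on either strand, and overlapping matches run together in CXCL2.
CXCL2: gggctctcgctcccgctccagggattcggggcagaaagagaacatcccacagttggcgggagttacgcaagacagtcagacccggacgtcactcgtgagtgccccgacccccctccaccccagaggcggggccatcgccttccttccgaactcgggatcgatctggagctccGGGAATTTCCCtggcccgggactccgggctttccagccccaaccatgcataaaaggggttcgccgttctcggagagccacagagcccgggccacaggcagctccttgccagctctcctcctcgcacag
BIRC3: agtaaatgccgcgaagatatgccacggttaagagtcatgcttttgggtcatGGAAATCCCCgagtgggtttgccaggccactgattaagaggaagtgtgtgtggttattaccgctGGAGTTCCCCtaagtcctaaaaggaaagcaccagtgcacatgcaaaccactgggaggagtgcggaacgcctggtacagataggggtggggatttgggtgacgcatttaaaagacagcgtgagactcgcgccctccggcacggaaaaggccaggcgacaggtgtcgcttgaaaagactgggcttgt
The consensus was found in 5.91% of all windows and in 15 of the 27 windows of the 17 list members that matched one. NFKB2, which was not called, was among the members with a match.

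Interferon-stimulated and MHC class I genes were also higher in DU145. Of 22 members, 16 were higher in DU145 and 0 in 22Rv1, IRF9 and MX1 were not called, 3 were under the minimum count and the level of ISG15 was not analysed here. HLA-B, which presents peptides to T cells, stood at 314, 307 and 319 TPM and 3.11, 3.44 and 3.09 TPM (6.62 ± 0.05, or 4.33 with recovered reads). B2M, the light chain of MHC class I, was at 1205, 1224 and 1268 TPM and 386, 394 and 397 TPM (1.65 ± 0.03). The lines therefore differed far less in B2M than in HLA-B. The HLA genes are highly polymorphic and listed on several haplotypes, so alleles that differ from the reference may have been counted less completely in 1 line than in the other. IFIT3, an antiviral protein, was at 36.3, 36.4 and 42.21 TPM and 0.14, 0.177 and 0.0218 TPM (8.38 ± 0.20). IFIT1, its neighbour, was at 48.6, 47.3 and 55.6 TPM and 1.02, 0.863 and 1.34 TPM (5.51 ± 0.12, or 4.36 with recovered reads). MX1, another antiviral gene, was present in both lines, at 18.7, 15.8 and 17.6 TPM and 10.6, 10.9 and 10.8 TPM (0.69 ± 0.08), and it passed the threshold only with recovered reads (1.70).

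The promoter of IFIT3 is given as an example of this list, at chr10:89327747-89328046 on the plus strand of GRCh38.p14, with capitals for the 2 matches to GAAANNGAAA, the core of the interferon-stimulated response element, on either strand.
IFIT3: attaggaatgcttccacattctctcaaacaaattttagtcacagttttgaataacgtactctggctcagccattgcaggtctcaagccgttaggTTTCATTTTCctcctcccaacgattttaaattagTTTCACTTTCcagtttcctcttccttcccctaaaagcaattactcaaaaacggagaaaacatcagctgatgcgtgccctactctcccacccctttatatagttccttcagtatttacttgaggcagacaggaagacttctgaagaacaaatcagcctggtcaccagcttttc
The core was found in 3.57% of all windows and in 15 of the 24 windows of the 18 members that matched one, MX1 and ISG15 among them.

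**Figure D3:**
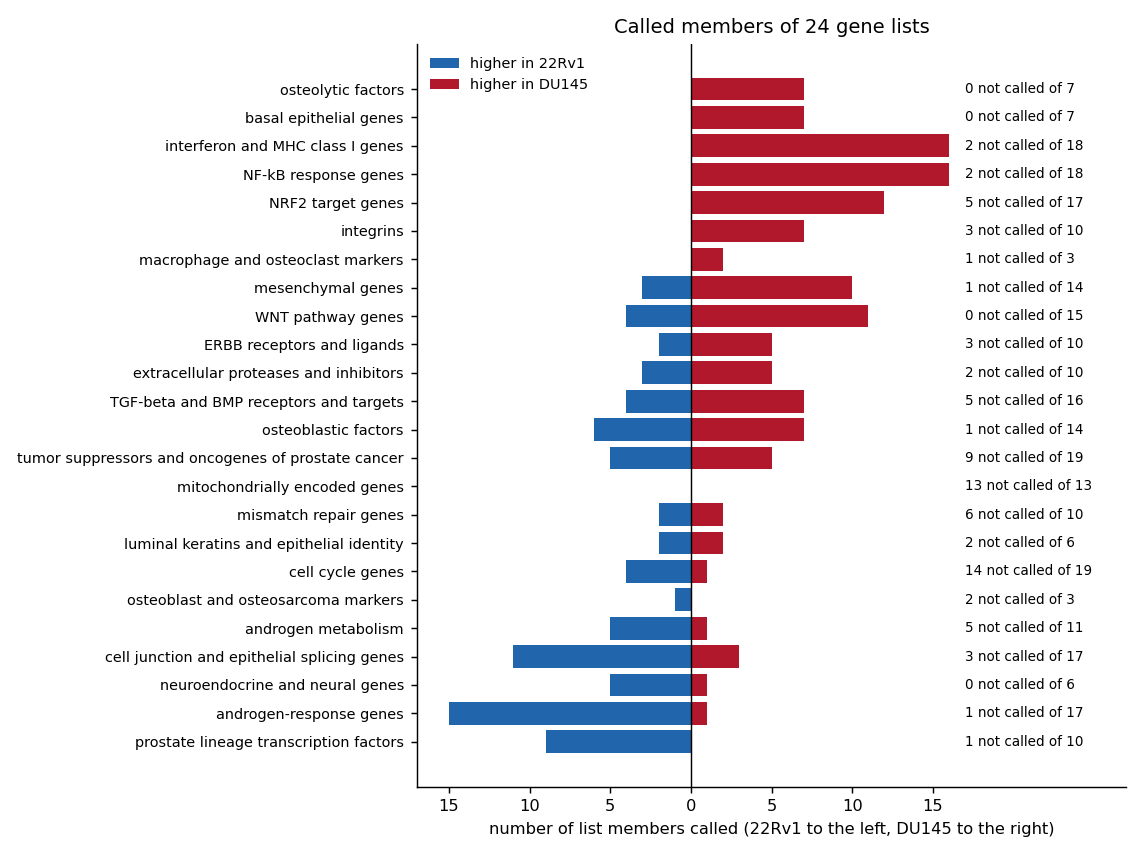
Number of members called in each of 24 gene lists, with genes higher in 22Rv1 to the left of 0 and genes higher in DU145 to the right, and the number not called of those tested at the right edge. The lineage factors and androgen-response genes extend to the left and the NF-kB, interferon, NRF2 and integrin lists to the right.

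Genes of the NRF2 response, which protects cells from oxidants, were higher in DU145 in 12 of 18 members and in 22Rv1 in 0, with 5 not called and 1 under the minimum count. NQO1, a quinone reductase, was among the most abundant differing genes, at 2481, 2459.6 and 2572 TPM in DU145 and 47.6, 43.7 and 45.9 TPM in 22Rv1 (5.78 ± 0.04). TXNRD1, a thioredoxin reductase, stood at 1297, 1367 and 1379.7 TPM and 183, 173 and 179 TPM (2.92 ± 0.04). The pathway's own components differed less, with NFE2L2, which encodes NRF2, at 1.33 ± 0.05 and KEAP1, its inhibitor, at 1.06 ± 0.05. The call of KEAP1 was lost when reads recovered from the values were tested (0.79). GCLC and SLC7A11, targets for glutathione synthesis, were not called (-0.24 ± 0.11 and -0.28 ± 0.07).

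Receptors and ligands of the ERBB family were arranged differently in the lines. EGFR, the receptor of epidermal growth factor, was nearly level, at 85.2, 82.6 and 85.1 TPM in DU145 and 96.2, 98.3 and 95.4 TPM in 22Rv1 (-0.19 ± 0.04), and ERBB2 was not called. Its ligands were higher in DU145. AREG was at 81.8, 73.8 and 84.1 TPM and 6.66, 4.54 and 7.62 TPM (3.65 ± 0.13). EREG was at 45.7, 47.5 and 49.7 TPM and 0.653, 0.374 and 0.343 TPM (6.74 ± 0.13, or 7.44 with recovered reads), and HBEGF and TGFA differed by 4.64 ± 0.08 and 3.87 ± 0.10. ERBB3, a receptor for neuregulins, was higher in 22Rv1, at 76.5, 79.7 and 79.3 TPM against 13.2, 15.8 and 15 TPM (-2.42 ± 0.06), as was ERBB4, another neuregulin receptor, at 3.41, 3.64 and 3.27 TPM against 0.00891, 0.0102 and 0 TPM. In all, 5 of the 15 members were higher in DU145 and 2 in 22Rv1, 3 were not called and 5 were under the minimum count.

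Extracellular proteases showed the urokinase system on the DU145 side. With PLAU, its receptor PLAUR was higher in DU145, at 51.5, 48.4 and 49.6 TPM against 11.6, 12.9 and 8.75 TPM (2.19 ± 0.11). MMP14, a membrane-bound matrix metalloprotease, stood at 37.8, 38.8 and 40.1 TPM against 0.644, 0.877 and 1.38 TPM (5.29 ± 0.15). The inhibitor TIMP2 was higher in the same line, at 259.9, 274 and 273 TPM against 1.11, 1.37 and 1.16 TPM (7.78 ± 0.06), while TIMP1 was not called (0.43 ± 0.04). The gelatinases and collagenases MMP1, MMP2, MMP9 and MMP13 did not reach the minimum count in either line. 22Rv1 had the higher levels of SPINK1, a trypsin inhibitor overexpressed in a subset of prostate tumors, at 110.0, 121 and 127 TPM against 0, 1.08 and 0.547 TPM (-7.84 ± 0.28, or -7.21 and -8.81 without replicate 1 and replicate 2 of DU145), and of the membrane serine protease ST14 and its inhibitor SPINT1 (-3.35 ± 0.13 and -2.93 ± 0.10). Of 20 members, 5 were higher in DU145, 3 in 22Rv1, 2 were not called and 10 were under the minimum count.

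Few cell cycle genes were called. Of 20 members, 14 were not called, 4 were higher in 22Rv1, 1 was higher in DU145 and 1 was under the minimum count, so 5 of the 19 tested were called, against 39.6% of all tested genes. CCND1, which encodes cyclin D1, was at 144, 139 and 131 TPM in DU145 and 1262, 1280.4 and 1227 TPM in 22Rv1 (-3.18 ± 0.04). CDK4, the kinase it activates, was at 135, 141 and 141 TPM and 577, 551 and 564 TPM (-2.02 ± 0.03). MKI67, a marker of cycling cells, was at 123, 122 and 118 TPM and 61.3, 62.9 and 59.4 TPM, just short of the fold threshold (0.99 ± 0.04). CDK1, the kinase of mitotic entry, was nearly level (-0.21 ± 0.03). Outside this list, CDKN2A, which encodes an inhibitor of CDK4, was higher in DU145, at 171, 167 and 156 TPM against 29, 25.7 and 30.3 TPM (2.54 ± 0.07). Its neighbour CDKN2B, also outside the list, was higher in DU145 as well (3.02 ± 0.12). RB1, the pocket protein they protect, was at 29.5, 31 and 30.2 TPM and 28.8, 29.3 and 29.2 TPM (0.06 ± 0.05), without overlap between the lines but with a difference near 0.

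Among the other tumor suppressors and oncogenes, MYC was higher in 22Rv1, at 243, 244 and 251 TPM against 67.1, 59.7 and 64.9 TPM (-1.94 ± 0.05), and so was ETV1, an ETS factor that is rearranged in some prostate tumors, at 16.6, 17.3 and 14.6 TPM against 0.097, 0.112 and 0.366 TPM (-6.46 ± 0.27, or -7.44 with recovered reads and -7.34 without replicate 3 of DU145). In the whole list of 20, 5 were higher in each line, 9 were not called and 1, ERG, was under the minimum count, so 10 of the 19 tested were called.

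Of the 10 mismatch repair genes, 2 were higher in each line and 6 were not called, which is close to the share among all tested genes. MSH3, which recognizes insertion and deletion loops, was at 7.72, 7.37 and 6.95 TPM in DU145 and 2.15, 2.02 and 2.21 TPM in 22Rv1 (1.79 ± 0.14). PCNA, the sliding clamp, was higher in 22Rv1 (-1.11 ± 0.03). By contrast, 0 of the 13 mitochondrially encoded genes were called, and their sum was 139149 to 145823 TPM in DU145 and 113805 to 129728 TPM in 22Rv1. All 13 had a log2 difference between -0.45 and 0.87.

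Receptors for growth and differentiation signals were also unequal. TGFBR2, the ligand-binding receptor of TGF-beta, was at 74.4, 79.1 and 79.4 TPM in DU145 and 1.52, 1.63 and 1.48 TPM in 22Rv1 (5.66 ± 0.07). SMAD3, its effector, was at 52, 55.8 and 54.7 TPM and 11.5, 11.4 and 10.1 TPM (2.31 ± 0.06). BMPR1B, a receptor of bone morphogenetic proteins, was higher in 22Rv1 (-3.36 ± 0.25), and so were ID2 and ID3, which those proteins induce (-1.63 ± 0.04 and -1.46 ± 0.03), while ID1 was not called (0.15 ± 0.04). Of the 16 members of this list, 7 were higher in DU145, 4 in 22Rv1 and 5 were not called. Of 22 WNT pathway genes, 11 were higher in DU145 and 4 in 22Rv1, and 7 were under the minimum count. The 4 were FZD1, a WNT receptor, LEF1, a transcription factor of the pathway (-5.40 ± 0.38, or -6.12 without replicate 1 of DU145), RNF43, a feedback inhibitor (-4.86 ± 0.23), and LGR5, a receptor for R-spondins, at 8.3, 9.67 and 9.23 TPM against 0.0131, 0.0232 and 0 TPM. With 2 reads of LGR5 in all DU145 cultures, the ratio was 748 with a 95% counting interval of 207 to 6174.

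The widest differences of the whole table were mostly in genes outside these lists. Among called genes with at least 20 TPM in the higher line and no overlap, the 10 with the largest fitted difference toward DU145 were C11orf86, GALNT14, CT83, SERPINA1, PLAU, GRAMD1B, SLCO1B3, DDX43, AXL and KIRREL1. C11orf86, GALNT14 (a glycosyltransferase) and CT83 (a cancer-testis gene) had 0 reads in 22Rv1 and were at least 169-fold, 231-fold and 50-fold higher in DU145. GRAMD1B, a cholesterol transporter of the endoplasmic reticulum, was at 183, 197 and 196 TPM in DU145 and 0.171, 0.0964 and 0.138 TPM in 22Rv1 (10.56 ± 0.10). KIRREL1, an adhesion molecule, was at 138, 139 and 144 TPM and 0.184, 0.0843 and 0.05 TPM (10.25 ± 0.11, or 10.86 without replicate 1 of 22Rv1). Toward 22Rv1 they were MT1G, PRAC1, MAGEA2, CTAG1B, TMEM179, TWIST1, CTAG2, TRGJP, HGF and PLA2G3. MT1G, a metallothionein, had 0 reads in DU145 and was at least 163-fold higher in 22Rv1, and PRAC1, a small nuclear protein of prostate and colon, at least 121-fold. HGF, the ligand of the receptor MET, was at 101, 99.7 and 109 TPM in 22Rv1 and had 2 reads in DU145, a ratio of 4008 with a 95% counting interval of 1109 to 33094. MAGEA2, CTAG1B and CTAG2 are cancer-testis antigens of the X chromosome with near-identical copies, so their reads may be shared. TRGJP, a T-cell receptor joining segment, rested on 65 reads.

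By amount, the 5 called genes with the largest difference in mean TPM toward DU145 were FTH1, ENO1, NQO1, S100A6 and ALDOA. FTH1, the heavy chain of the iron store ferritin, was at 5249.9, 5164 and 5451 TPM in DU145 and 1071, 1062 and 1062 TPM in 22Rv1 (2.32 ± 0.03). S100A6, a calcium-binding protein, was at 2355, 2255 and 2364 TPM and 42, 38.3 and 38.1 TPM (5.89 ± 0.05). ENO1 and ALDOA, enzymes of glycolysis, differed by 1.96 ± 0.03 and 1.88 ± 0.03. Toward 22Rv1 they included RPL41, TMSB10, RPS3A and RPL37A. TMSB10, an actin-binding peptide, was at 2581, 2675 and 2574 TPM and 6184, 6047 and 5867 TPM (-1.20 ± 0.03), and the 3 ribosomal protein genes named, which have many pseudogene copies, ranged from -2.38 to -1.12 in log2 difference.

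The deposited values are per transcript, so some gene differences could be followed to isoforms, as a description without a test. Reads that fall in exons shared by all forms cannot be told apart, and the division among forms is an estimate. CD44 and CDKN2A differed by isoform. CD44-201, a protein-coding transcript, was 62.1 to 66.1% of CD44 in DU145 and 27.1 to 28.4% in 22Rv1. CD44-209, also protein-coding, held 30.2 to 33.5% in 22Rv1 against 1.14 to 2.74% in DU145. CDKN2A-201 was at 76.2 ± 1.86 TPM in DU145 and 3.81 ± 1.86 TPM in 22Rv1. FGFR2 and TP63 were too low in both lines for their isoforms to be compared.

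The difference between the lines was not spread evenly over the chromosomes. The median log2 difference of the tested genes was -0.64 on chromosome 7, where 218 of 641 genes were higher in 22Rv1 and 86 in DU145. Chromosome 12 had a median of -0.45 and chromosome X of -0.40. The highest medians were 0.36 on chromosome 10, 0.35 on chromosome 5 and 0.32 on chromosome 14, against -0.02 over all genes. The share of genes higher in 22Rv1 ran from 12.2% on chromosome 10 to 34% on chromosome 7. DNA copy number was not measured in these cultures, and its part in these values was not tested.

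The 12 other cultures of both lines were not used by the comparison above, so they show how far it carries over to other conditions and fewer reads, at 9593426 to 15132736 counts each. Each was tested with 1 mean per line and culture. DU145 and 22Rv1 differed in 5114 of 13013 genes with MG63 cells (39.3%), 4957 with RANKL (38.1%) and 4981 with RAW264.7 cells and RANKL (38.3%). Of the 5133 genes called in mono-culture, 5094 kept their direction with MG63 cells, 5068 with RANKL and 5067 with RAW264.7 cells and RANKL. More than 2-fold in the same direction were 4381, 4280 and 4282 of them, and 3740 (72.9%) were so in all 3. Replicate 2 of DU145 with MG63 cells stood apart from the other cultures of its line, for example by a median shift of 0.34 (log2) on chromosome 19 against 0.0581 in replicate 1. Without it, 4493 genes were over 2-fold in the same direction with MG63 cells. Called in the opposite direction were 8 (4 without replicate 2 of DU145), 6 and 7.

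Of the genes shown by kind of culture, HOXB13 and KLK4 stayed more than 2-fold higher in 22Rv1 in all 3, and VIM, AXL, ITGA3, NQO1 and HLA-B stayed more than 2-fold higher in DU145. A test of whether the difference itself changed against mono-culture, added after the values were seen, called 267 genes with MG63 cells (2.05%, or 279 genes without replicate 2 of DU145), 621 with RANKL (4.77%) and 591 with RAW264.7 cells and RANKL (4.54%).

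Several epithelial genes were among those whose difference changed in the cultures with RANKL. EPCAM, lower in DU145 in mono-culture, stood at 84.5 and 89.9 TPM in the DU145 cultures with RANKL and 87.3 and 94 TPM in those of 22Rv1, a difference of 0.03 ± 0.19. With RAW264.7 cells and RANKL it was -0.23 ± 0.19. The DU145 cultures were thus higher than in mono-culture while 22Rv1 kept its level. SNAI2 stood at 2.52 and 2.44 TPM in DU145 and 2.9 and 1.58 TPM in 22Rv1 with RANKL (0.26 ± 0.28). The differences of ESRP1 and SPDEF shrank to -4.68 ± 0.14 and -4.37 ± 0.12. AKR1C3 changed sign, at 10.5 and 9.06 TPM in DU145 and 16.5 and 17.3 TPM in 22Rv1 with RANKL (-0.70 ± 0.24) and with a difference of -1.36 ± 0.25 with RAW264.7 cells and RANKL. DKK1 fell under the 2-fold line at 0.77 ± 0.21, and IGFBP3 moved further toward 22Rv1 at -4.00 ± 0.21. With MG63 cells, EPCAM and SNAI2 had differences of -2.67 ± 0.21 and -2.22 ± 0.23, or -3.13 ± 0.19 and -2.00 ± 0.25 without replicate 2 of DU145.

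**Figure D4:**
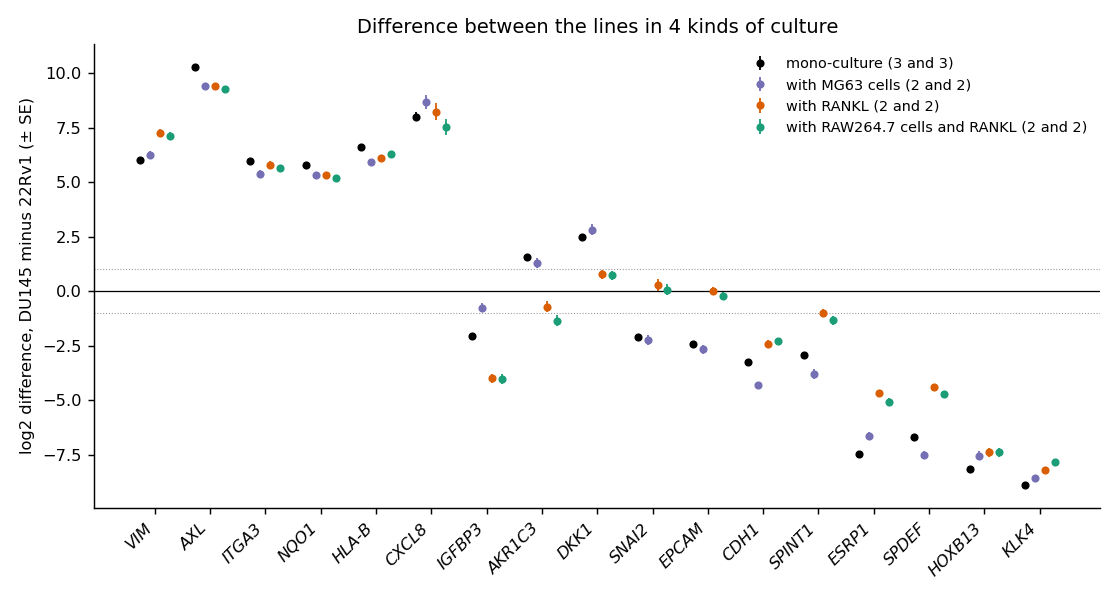
Fitted log2 difference, DU145 minus 22Rv1, with its standard error for 17 genes in mono-culture and in the 3 other kinds of culture, with dotted lines at 2-fold. HOXB13, KLK4, VIM, AXL and NQO1 keep their side in all 4, while EPCAM and SNAI2 lie near 0 and AKR1C3 crosses it in the 2 kinds of culture with RANKL.

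The DU145 cultures with RANKL also differed from the mono-cultures by chromosome, with or without RAW264.7 cells. For each culture, the level of 11195 genes was set against the mean of the line's mono-cultures and centered on the median of all genes. In the 4 DU145 cultures with RANKL, the median shift of the 360 genes on chromosome 15 was between 0.427 and 0.442 on the log2 scale, and between 86.1% and 89.7% of these genes were above 0. Chromosome 21 shifted by 0.241 to 0.297, chromosome 7 by 0.187 to 0.214 and chromosome 14 by 0.175 to 0.216. Chromosome 8 shifted the other way, by -0.219 to -0.177. On chromosomes 7, 14, 15 and 21 the 6 other cultures of 22Rv1 stayed between -0.0502 and 0.0177, and the 2 DU145 cultures with MG63 cells between -0.0785 and 0.0138. On chromosome 8, however, the 4 cultures of 22Rv1 with RANKL shifted with those of DU145, by -0.169 to -0.157, while the cultures with MG63 cells were at -0.0813 and -0.00932 in DU145 and at -0.0292 and -0.0135 in 22Rv1. Smaller shifts in 22Rv1 appeared with RANKL and with MG63 cells alike. Chromosome 18 lay at -0.149 to -0.104 with RANKL and at -0.0895 and -0.0781 with MG63 cells. Chromosome 19 lay at 0.0679 to 0.116 and at 0.102 and 0.155, chromosome 3 at -0.112 to -0.085 and at -0.0424 and -0.0281, and chromosome 22 at 0.0405 to 0.105 and at 0.0668 and 0.0819. With MG63 cells, replicates 1 and 2 of DU145 lay at -0.0155 and -0.181 on chromosome 18 and at 0.0581 and 0.34 on chromosome 19. On chromosomes 3 and 22 they lay at 0.0123 and -0.0984 and at 0.0586 and 0.3. With RANKL, DU145 lay at -0.0794 to -0.0673 on chromosome 18 and at -0.0195 to 0.0465 on chromosome 19. On chromosomes 3 and 22 its ranges were -0.0608 to -0.0433 and 0.0106 to 0.0467. DU145 thus shared these shifts in part. The labels do not say whether the cultures with RANKL were started from the same cells as the mono-cultures, so the addition of RANKL and any such difference cannot be told apart. The median difference between the lines on chromosome 15 was -0.24 in mono-culture and -0.22 with MG63 cells, and 0.33 with RANKL.

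**Figure D5:**
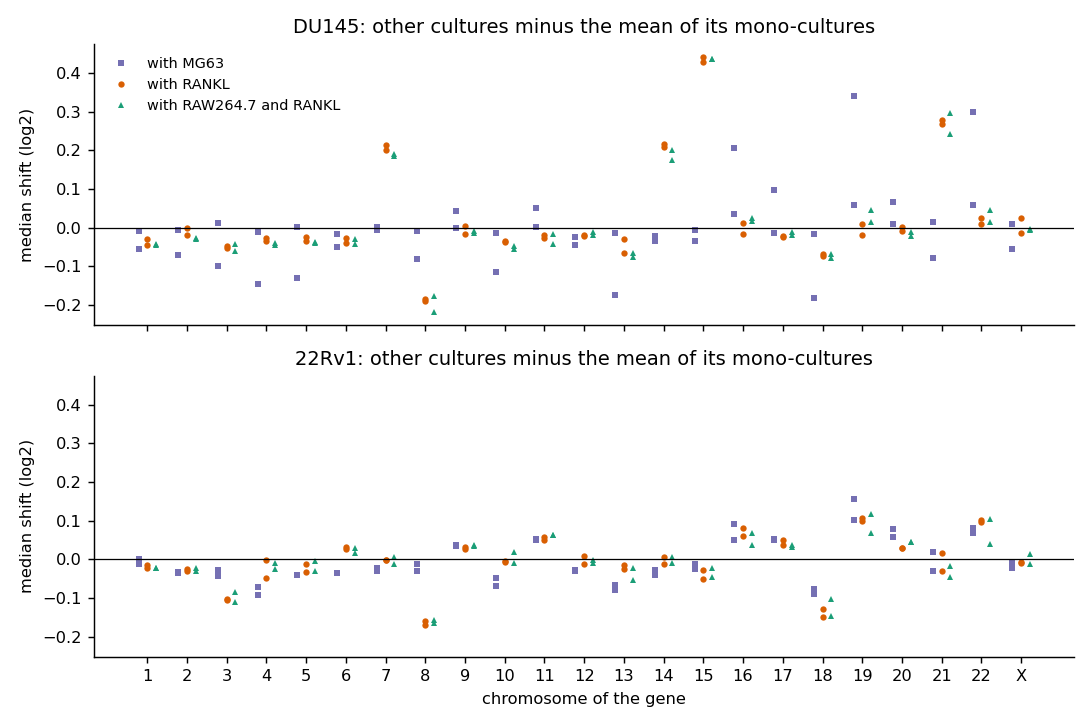
Median shift by chromosome, in log2 units, of each DU145 culture (top) and each 22Rv1 culture (bottom) against the mean of the 3 mono-cultures of its line, with 1 symbol per culture. In DU145 the cultures with RANKL sit at 0.43 to 0.44 on chromosome 15 and above 0.17 on chromosomes 7, 14 and 21, where the 22Rv1 cultures stay near 0, and on chromosome 8 the cultures with RANKL of both lines lie below 0.

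The distance between DU145 and 22Rv1 can be read against the other pairs of lines, which share cultures with this comparison and are given side by side. In 1 fit of all 12 mono-cultures, 39.8% of 13417 genes were called between DU145 and 22Rv1. Between DU145 and C4-2 it was 39.2%, and between DU145 and C4-2B it was 40.1%. Between 22Rv1 and the same BPCa lines, 28.7% and 29.5% were called, while C4-2 and C4-2B, which descend from 1 parent, differed in 2.59%. By the number of called genes DU145 was about as far from 22Rv1 as from either BPCa line. Of the genes higher in DU145 than in 22Rv1, both C4-2 lines lay nearer 22Rv1 on the log2(TPM + 1) scale for 1912 and nearer DU145 for 549. Of the genes higher in 22Rv1, the numbers were 1227 and 1080.

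Pooling the lines as LPCa gave 4023 genes called against BPCa (30%), 2265 higher in LPCa and 1758 higher in BPCa. For 1503 of the former, all 6 cultures of both lines lay above all 6 BPCa cultures. A further 488 were above them in DU145 alone and 270 in 22Rv1 alone. Of the genes higher in BPCa, 1282 were lower in both lines, 317 in DU145 alone and 8.25% in 22Rv1 alone. Only 1 of the lines thus lay wholly beyond the BPCa cultures for 758 of the genes called higher in LPCa and 462 of those called higher in BPCa.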

How the data were processed

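Expected counts per Ensembl transcript were deposited for 36 cultures of human PCa lines. Per the labels and the study's methods the authors made them from directional poly(A) libraries with FastQC and kallisto and tximport. The submitters' notes name the build hg19, so the only coordinates given are those of the promoter windows, which have their own build. The deposited expected counts behave as scaled TPM counts: value times transcript length falls on whole multiples of 1 step per culture, within 0.02, for 68 to 74.6% of values below 10 reads. A value over the culture's total is therefore a TPM. The 6 mono-cultures held 23932472 to 34149876 counts.

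Each of 159837 transcripts was taken once (transcripts listed again had identical values), and values were summed by symbol to 27852 genes. Transcripts without a symbol, 0.526 to 0.764% of the counts of the 6 mono-cultures, were left out. Genes reaching 100 counts in at least 1 culture were rounded and tested with edgeR 4.0.16 (R 4.3.3) by quasi-likelihood with TMM and 1 mean per line. The other cultures were tested in a fit of 18, and line pairs and LPCa against BPCa in a fit of 12. Alternatives included DESeq2 1.42.0. The scripts were tested on simulated data. The members and lists were chosen with earlier results of these data known. Genes were named from 25 lists, of which 24 are reported, as the 10 largest differences in each direction among called genes with at least 20 TPM and no overlap, and as the 5 largest differences in mean TPM. Some genes that the rule names are not reported here. Changes of the difference, chromosome shifts, recovered reads and the families were added after seeing the data. The detection limit was 3 reads, and counting intervals are exact Poisson at 95% and cover counting error only. Promoter windows are from RefSeq GRCh38.p14.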

Additional observations from a re-analysis of the deposited data

Results flagged for a closer look

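For 38 of the 150 tested genes named in the text, the difference between DU145 and 22Rv1 changed by more than 2-fold from mono-culture to another kind of culture, with an adjusted p under 0.05 in edgeR's quasi-likelihood test of the change itself. Of all genes tested, 7.65% did so in at least 1 of the 3 other kinds of culture. The genes named include some chosen for the size of their difference or of its change, so the shares are not compared. The values are changes of the log2 difference (DU145 minus 22Rv1) with their standard error, so a positive value is a move toward DU145. GALNT14, MT1G, SFRP1 and TWIST1 also passed and are not counted in the 38. They had 3 reads or fewer in 1 of the groups, and their fitted changes are not given. The labels do not say whether the cultures with RANKL were started from the same cells as the mono-cultures, so any such difference and the addition of RANKL cannot be told apart.

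Of the 18 cell junction and epithelial splicing genes, 5 moved toward DU145 and 0 toward 22Rv1 with RANKL, and 5 and 0 with RAW264.7 cells and RANKL, against 4.77% and 4.54% of all genes in either direction. Other lists changed as well. Of the 20 androgen-response genes, 4 and 1 moved toward DU145 and 22Rv1 with RANKL, and 5 and 1 with RAW264.7 cells and RANKL. Of the 20 mesenchymal genes the counts were 4 and 0 with RANKL and 2 and 1 with RAW264.7 cells and RANKL, and of the 20 extracellular proteases and inhibitors 3 and 1, and 4 and 1. For the 10 prostate lineage factors they were 2 and 1 in both kinds of culture. For the 15 ERBB receptors and ligands they were 2 and 0, and 2 and 2. The 5 of the first list were ESRP1, EPCAM, OVOL2, DSP and ST14 in both. The change was 2.76 ± 0.21 for ESRP1 with RANKL and 2.38 ± 0.22 with RAW264.7 cells and RANKL. For EPCAM it was 2.46 ± 0.24 and 2.20 ± 0.24, for OVOL2 2.08 ± 0.32 and 2.11 ± 0.31, for DSP, which encodes desmoplakin, 1.43 ± 0.15 and 1.36 ± 0.15, and for the membrane protease ST14 1.65 ± 0.19 and 1.37 ± 0.19. Outside the first list, SPDEF, a lineage factor, changed by 2.31 ± 0.16 and 2.00 ± 0.16, and SPINT1, the inhibitor of ST14, by 1.94 ± 0.26 and 1.61 ± 0.26. The prostate gene STEAP1 (1.16 ± 0.10 and 1.27 ± 0.10) moved the same way. So did 3 genes of mesenchymal cells, SNAI2 (2.37 ± 0.32 and 2.18 ± 0.31), VIM (1.25 ± 0.19 and 1.13 ± 0.19) and ZEB1, which passed with RANKL alone (1.16 ± 0.32). ELF3, an epithelial ETS factor, moved the other way (-1.17 ± 0.22 and -1.53 ± 0.22).

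Among signaling genes, RNF43 moved by 2.17 ± 0.36 and 2.58 ± 0.36, SMAD3 by 1.38 ± 0.22 and 1.16 ± 0.21, EGFR by 1.104 ± 0.20 and 1.09 ± 0.20 and LIF by 1.06 ± 0.25 and 1.63 ± 0.27. AREG passed with RANKL (1.07 ± 0.23), and KLK4 (1.104 ± 0.16) and MMP14 (2.17 ± 0.45) with RAW264.7 cells and RANKL. All of these were moves toward DU145, as were those of MT2A, a metallothionein, at 1.29 ± 0.19 and 1.12 ± 0.19.

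Toward 22Rv1, AKR1C3 moved by -2.26 ± 0.30 with RANKL and -2.91 ± 0.30 with RAW264.7 cells and RANKL. The secreted factors IGFBP3 (-1.92 ± 0.24 and -1.94 ± 0.24) and DKK1 (-1.70 ± 0.28 and -1.74 ± 0.28) and the protease inhibitor TIMP2 (-1.29 ± 0.27 and -1.26 ± 0.28) followed. The transcription regulator ID2 (-1.21 ± 0.21 and -1.46 ± 0.21) and the surface proteins FOLH1 (-1.25 ± 0.35 and -1.14 ± 0.34) and CD44 (-1.03 ± 0.27 and -1.17 ± 0.27) moved the same way. CTSK passed with RANKL (-1.18 ± 0.31), and S100A6 (-1.14 ± 0.11), TGFBI (-1.36 ± 0.39) and HBEGF (-1.02 ± 0.31) with RAW264.7 cells and RANKL.

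With MG63 cells, 0 of the 18 cell junction and epithelial splicing genes moved toward DU145 and 4 toward 22Rv1, against 2.05% of all genes in either direction. These 4 were CDH1, CDH3, CLDN4 and ST14. CAV1 moved by -2.22 ± 0.20, TIMP2 by -1.56 ± 0.22, ST14 by -1.20 ± 0.25, WNT7B by -1.11 ± 0.20, CDH1 by -1.07 ± 0.21, CDH3 by -1.04 ± 0.20 and CLDN4 by -1.98 ± 0.18, all toward 22Rv1. MT2A moved by 2.19 ± 0.19, SLC7A11 by 1.88 ± 0.22, NFKBIA by 1.36 ± 0.13, IGFBP3 by 1.33 ± 0.24 and LIF by 1.04 ± 0.25, all toward DU145. ST14 and IGFBP3 thus moved in opposite directions with MG63 cells and with RANKL. These 12 changes passed the same threshold without replicate 2 of DU145 with MG63 cells.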

How the results depend on the processing

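The number of genes higher in DU145 or in 22Rv1 moved by more than 1.5 times only with the fold that counts as a call: at 4-fold 1423 and 1152 genes were called, and with no minimum fold 5477 and 5668, against 2617 and 2516. Without the filter on low values, 6096 genes differed between LPCa and BPCa, against 4023. Leaving out 1 culture at a time gave 2592 to 2634 genes higher in DU145 and 2422 to 2524 higher in 22Rv1. With MG63 cells, 5083 genes differed between the lines without replicate 2 of DU145. The same-numbered cultures of the lines did not deviate together (correlations of -0.0336 to 0.024), so the numbers do not pair them, and a fit with the replicate number as a block called 2621 and 2523 genes. DESeq2, with its own filter on low values, called 3577 and 3638 genes, and edgeR with no filter called 3608 and 3647. Reads recovered from the values gave 2660 and 2579, which included 91.3% and 89.1% of the genes called in the main fit. A fit of the mono-cultures with RANKL called 2009 and 1872 of 10780 genes. These included 66.3% and 61.1% of the genes called in the main fit. A fit on scaled TPM counts was not run as an alternative, since the deposited values already are such counts.

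Of 2839 values of named genes under an alternative, 2771 kept direction and side of the threshold, 30 lost the call, 27 gained it and 11 changed sign. The alternatives with an unadjusted p, at 4-fold and with no minimum fold reuse the same fitted differences, so direction could not change in them. Calls lost or gained at those folds follow from the moved threshold. In the mono-cultures with RANKL, AKR1C3 was at -0.74, and of genes not called in mono-culture EGFR was at 0.86, ERBB2 at -0.83, SOD2 at -0.48, NFKB2 at 0.42, ID1 at -0.23, KRT19 at 0.18, SLC7A11 at 0.0289 and CDK1 at 0.0190. SOD2 was at -0.27 with recovered reads and IRF9 at -0.0035 without replicate 1 of DU145. MKI67 and ITGAV lay at the 2-fold line and passed it under some alternatives. The cause of these changes was not tested.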

Other observations

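Some gene families that no list held also differed between the mono-cultures. They were chosen after the values were seen and are given as counts without a test of the family. Of 20 tested S100 and annexin genes, which encode calcium-binding proteins, 18 were higher in DU145 and 0 in 22Rv1, and another 7 were under the minimum count. Among all genes tested, 20.2% were higher in DU145 and 19.4% in 22Rv1. Together they made up 8569 to 8687 TPM in a DU145 culture and 908 to 918 TPM in a 22Rv1 culture. The cancer-testis genes of the MAGEA, CTAG, SSX, GAGE, PAGE and XAGE families went the other way, with 14 of 17 tested genes higher in 22Rv1 and 1 in DU145. Their sum was 1108 to 1129 TPM in 22Rv1 and 74.1 to 76.9 TPM in DU145. Another 35 genes of these families were under the minimum count.

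The ribosomal protein genes took a larger share of the transcripts in 22Rv1, at 162029 to 167129 TPM against 106012 to 108288 TPM in DU145. Of 83 tested, 18 were called higher in 22Rv1 and 3 in DU145, and 65 had a log2 difference below 0. Over all genes tested the shares were 19.4% and 20.2%, so the 18 called were near the general share. The enzymes of glycolysis summed to 18538 to 18952 TPM in DU145 and 10386 to 10593 TPM in 22Rv1, although 6 of 16 were called higher in DU145 and 4 in 22Rv1. The larger sum in DU145 therefore rested on abundant members such as ENO1 and ALDOA. Metallothioneins, which bind zinc and copper, were divided, with 4 of 7 tested genes higher in DU145 and 2 in 22Rv1 and 3 under the minimum count. MT2A was at 818, 842 and 778 TPM in DU145 and 369, 323 and 339 TPM in 22Rv1 (1.25 ± 0.05), whereas MT1G was detected in 22Rv1 alone. Members of the ribosomal protein, cancer-testis and metallothionein families have near-identical copies, so the division of reads among them is uncertain.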
